A study of Rattus norvegicus with 8 samples.

Results

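GABA-A receptor subunit mRNA was followed in the rat hippocampus through 7 genes, Gabra2, Gabra3, Gabra4, Gabra5, Gabrb1, Gabrb2 and Gabrd, chosen by their NCBI GeneIDs from the 22601 genes listed in each library. The other 12 GABA-A subunit genes were listed as well and are given below as a group. All animals were wild-type Wistar rats, and the tissue of each was labelled as hippocampus. The Con. group (n = 3) received vehicle alone. The PTZ group (n = 3) received pentylenetetrazole (PTZ) and vehicle, and the Q808 group (n = 2) received PTZ and the candidate anticonvulsant Q808, so that both treated groups had been exposed to PTZ. PTZ was injected repeatedly at a dose below that which evokes a convulsion, so that seizures develop with repetition (kindling). A higher dose of PTZ was given on the last day of this course. Q808 was then given daily by mouth, and animals of both treated groups were challenged with PTZ again before the tissue was taken. Each library came from 1 rat, and the age and sex of the rats were not analysed here.

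The GABA-A receptor is a chloride channel of 5 subunits that opens when GABA binds, and it carries most of the fast inhibition in the brain. Most receptors hold alpha and beta subunits together with a gamma or delta subunit. The alpha subunit sets where the receptor sits and how it responds to GABA and to drugs. In the hippocampus the alpha5 subunit is known for receptors outside synapses on pyramidal cells, the alpha2 subunit for receptors at synapses, and the alpha4 and delta subunits for the receptors that give granule cells of the dentate gyrus, and also projection neurons of the striatum, their steady inhibitory current. PTZ blocks this channel, which is why it evokes seizures, and the alpha4 and delta genes have long been studied in epilepsy.

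Promoter sequences, windows of 300 bases that span the annotated start, were listed in RefSeq (assembly GRCr8) for 6 of the 7 genes, Gabra2 being the exception. Gabra4 is shown because it was the one subunit gene called between treatment groups. Its window, chr14:36944497-36944796 on the plus strand, had a GC content of 70.7% and 35 CpG pairs. The capitals mark its single match to the GC box, GGGCGG.
Gabra4: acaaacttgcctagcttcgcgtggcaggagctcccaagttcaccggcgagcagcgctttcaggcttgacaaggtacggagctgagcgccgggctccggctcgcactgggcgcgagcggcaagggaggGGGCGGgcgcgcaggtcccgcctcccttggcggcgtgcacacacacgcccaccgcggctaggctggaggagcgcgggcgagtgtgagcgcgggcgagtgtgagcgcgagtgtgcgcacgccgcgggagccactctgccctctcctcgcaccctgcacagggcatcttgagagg
Gabrb1 is the neighbour of Gabra4 on chromosome 14 and lies on the other strand. Its promoter and that of Gabrb2 on chromosome 10 each held 1 match to the NRF1 motif (the palindrome of the NRF1 transcription factor, in capitals in the sequences), although the levels of the 2 genes behaved differently between libraries, as described below. For each, 75 bases around the match are shown, with the match in capitals: chr14:36902873-36902947 on the minus strand for Gabrb1 and chr10:27439673-27439747 on the plus strand for Gabrb2.
Gabrb1: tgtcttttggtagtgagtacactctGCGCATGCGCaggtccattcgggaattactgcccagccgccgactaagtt
Gabrb2: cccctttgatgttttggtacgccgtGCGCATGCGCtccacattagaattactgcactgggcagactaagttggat
The NRF1 motif was found in 0.932% of all 27457 promoters of the same length, searched on both strands. The GC box was found in 34.9% of them and in 3 of the 6 subunit promoters, Gabra4, Gabra5 and Gabrd, the last with 4 matches. The TATA box motif, TATAAA, was found in Gabra3 alone among the 6 and in 14.3% of all promoters. A motif of the seizure-responsive EGR factors, GCGTGGGCG (0.59% of all promoters), and the CRE, TGACGTCA (1.91%), had no match in the 6 windows. These are matches of letters only, and binding was not measured.

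Levels are given in FPKM, fragments scaled by transcript length and by library size, which can be compared between genes. Before the subunits are compared, the libraries themselves have to be described, because they fell into 2 sets. The mean log2 level of 7 markers of striatal projection neurons, none of them a GABA-A subunit, was 5.98 to 7.34 in Con.-3, PTZ-3 and Q808-1 and 1.74 to 2.65 in the other 5 libraries, and all 7 markers were higher in each of the 3. These 3 libraries are called striatum-rich and the other 5 (Con.-1, Con.-2, PTZ-1, PTZ-2 and Q808-2) striatum-poor. All 8 oligodendrocyte markers were also higher in each striatum-rich library. The mean of 6 dentate granule cell markers was 0.78 to 0.82 there against 1.86 to 2.16, with 2 of the 6 lower and 1 higher in each, and the mean of 5 pan-neuronal markers was 5.91 to 6.16 against 6.51 to 7.29, with 4 of the 5 lower. The hippocampal markers Tdo2, Iyd and Fibcd1 were at or near 0 throughout, so they could not serve as a check of the label. The mean of 4 markers of CA1 pyramidal cells was 2.25 to 2.99 in the striatum-rich and 3.61 to 3.9 in the striatum-poor libraries, with 3 of the 4 lower in each, and that of 5 CA3 markers was 0.98 to 1.44 against 2.13 to 2.57, with 4 of the 5 lower. No libraries were identical, the Spearman correlation between libraries ranged from 0.94 to 0.988, and relative depth, read from the steps of the lowest values, was 71.9% to 83.5% of that of the deepest library in the striatum-rich set and 84.2% to 100% in the striatum-poor set. In bulk tissue, fewer cells of a type and less RNA per cell cannot be told apart.

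Gabra2 and Gabra5 were the most abundant of the 7 subunit genes in the striatum-poor libraries, with means of 71.2 ± 8.44 and 70.3 ± 9.83 FPKM (SD, n = 5). Gabra4 followed at 29.6 ± 6.38 FPKM and Gabrb2 at 24.9 ± 2.20, then Gabrb1 at 18.8 ± 1.91, Gabra3 at 14.1 ± 3.76 and Gabrd at 13.6 ± 3.10. In this order the ranges of neighbours overlapped, except between Gabra5 and Gabra4 and between Gabrb2 and Gabrb1. In the striatum-rich libraries the order was Gabra2 (37.1 ± 12.5 FPKM, SD, n = 3), Gabrd (33.2 ± 9.45), Gabra4 (31.2 ± 12.9), Gabrb2 (22.4 ± 6.96), Gabra3 (16.2 ± 3.11), Gabra5 (15.5 ± 6.11) and Gabrb1 (9.42 ± 1.26), and the ranges of all neighbours overlapped. Between sets, Gabra5 went from a place beside Gabra2 to the last but one, and Gabrd from the last to the second.

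**Figure D1:**
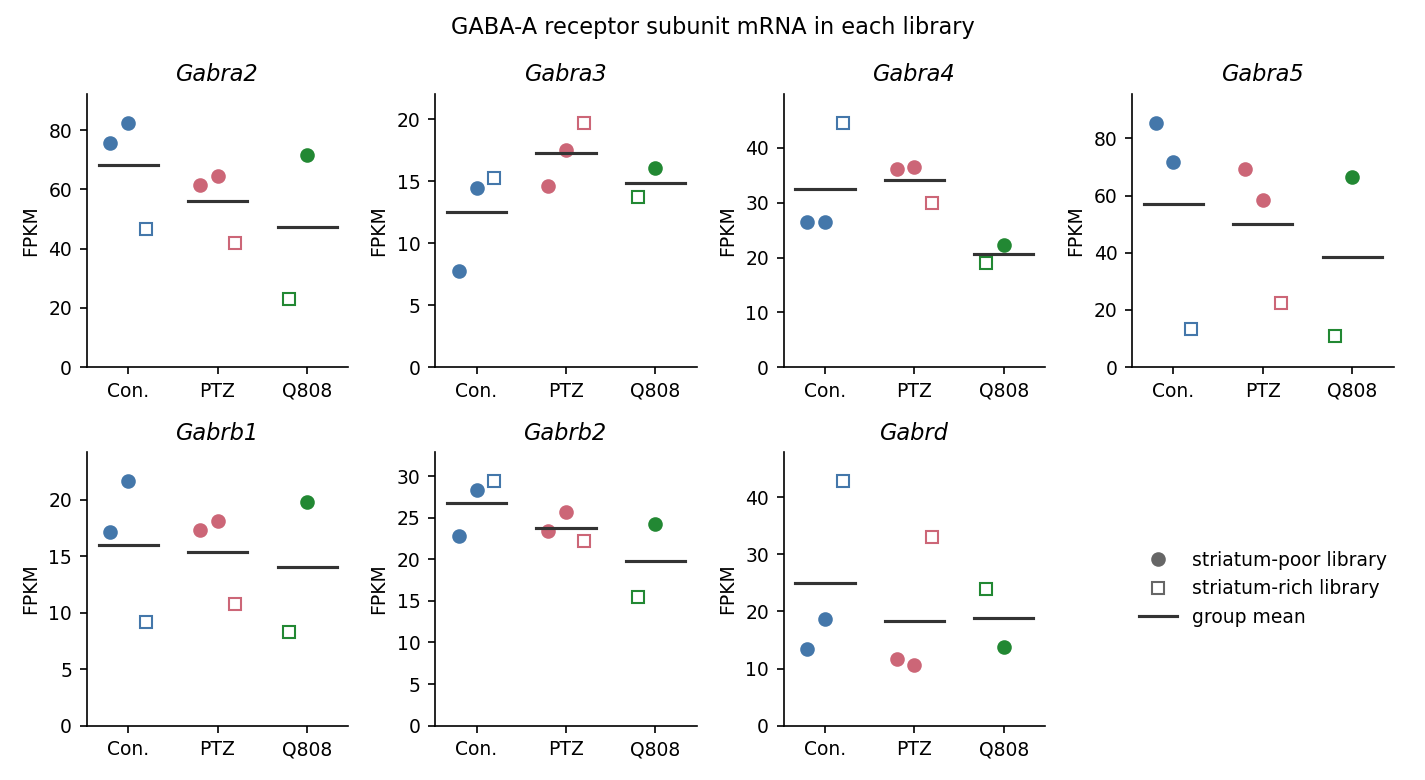
Level of each subunit gene (FPKM, vertical axis, starting at 0) in the 8 libraries by treatment group (horizontal axis); filled circles are striatum-poor libraries, open squares striatum-rich libraries, and bars group means. The Q808 libraries of Gabra4 (18.95 and 22.35 FPKM) both lie below all PTZ libraries, and Gabra2, Gabra5, Gabrb1 and Gabrd divide by library set.

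The first comparison, PTZ against Con., asks which subunit genes differ after kindling. None of the 7 was called, a call being an unadjusted p under 0.05 in limma together with a change of more than 1.5-fold, and none had an unadjusted p under 0.05. Over all 15593 genes tested the same rule called 2.53%. For each of the 7 genes the Con. and PTZ ranges overlapped. Their median log2 fold change was -0.0021, beside -0.04 over all genes tested, and limma's adjusted p was at least 0.999 for each.

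The alpha genes are taken first. Gabra2, which encodes a synaptic alpha subunit, was at 75.7, 82.5 and 46.5 FPKM in Con.-1, Con.-2 and Con.-3 and at 61.5, 64.6 and 41.9 in PTZ-1, PTZ-2 and PTZ-3. The low value of each group was its striatum-rich library, and the log2 fold change was -0.27 (95% interval -0.89 to 0.35). Gabra3, another alpha subunit, was at 7.72, 14.4 and 15.3 FPKM in Con. and at 14.6, 17.5 and 19.7 in PTZ. Its lowest value by far was Con.-1, and its log2 fold change of 0.52 (-0.14 to 1.18) did not pass the test in limma. Gabra4 was at 26.6, 26.4 and 44.6 FPKM in Con. and at 36.1, 36.6 and 29.9 in PTZ. Here the striatum-rich library was the highest of Con. and the lowest of PTZ, and the log2 fold change over all libraries was 0.11 (-0.42 to 0.64). Gabra5 was at 85.4, 71.8 and 13.4 FPKM in Con. and at 69.4, 58.4 and 22.4 in PTZ. Its striatum-rich libraries lay far below the others, and the interval of the log2 fold change of 0.05 ran from -1.73 to 1.82.

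The beta subunits form the GABA binding site together with the alpha subunits. Gabrb1 was at 17.1, 21.65 and 9.18 FPKM in Con. and at 17.3, 18.15 and 10.8 in PTZ, a log2 fold change of -0.0021 (-0.83 to 0.82). Gabrb2 was at 22.8, 28.3 and 29.4 FPKM in Con. and at 23.4, 25.7 and 22.25 in PTZ, a log2 fold change of -0.17 (-0.51 to 0.17), the narrowest interval of the 7. Its striatum-rich library was the highest of Con. and the lowest of PTZ. Gabrd, the delta subunit gene, was at 13.45, 18.65 and 42.8 FPKM in Con. and at 11.6, 10.6 and 33.0 in PTZ. Its striatum-rich library was the highest of each group, and the log2 fold change was -0.46 (-1.77 to 0.84). With the library set as a term over all 8 libraries the same difference for Gabrd had an interval of -0.90 to -0.03 (limma adjusted p = 0.619) but stayed under 1.5-fold, and again none of the 7 genes was called, beside 4.31% of all genes.

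The second comparison, Q808 against PTZ, asks which subunit genes differ with Q808 among PTZ-treated rats. Gabra4 fell, and it was the 1 gene of the 7 that was called, beside 1.92% of all genes tested. Gabra4 was at 18.95 FPKM in Q808-1 and 22.35 in Q808-2, against 36.1, 36.6 and 29.9 in the PTZ libraries. Gabra4 was the only member whose groups did not overlap here, and the share of all genes without overlap was not counted. Both Q808 libraries of Gabra4 lay below all 3 PTZ libraries. The group means were 20.7 ± 2.41 FPKM (SD, n = 2) and 34.2 ± 3.73 (SD, n = 3), a log2 fold change of -0.72 (SE 0.18, 95% interval -1.16 to -0.29). The Benjamini-Hochberg adjusted p over all genes was 0.952 in limma, and 0.0754 to 1 over the 18 alternatives tried, so the difference did not hold after correction. An exact permutation test of 2 against 3 libraries gave a two-sided p of 0.2, the smallest it can give. Leaving out each PTZ library in turn kept the call, beside 0.847%, 0.956% and 10.1% of all genes called without PTZ-1, PTZ-2 and PTZ-3. The library set as a term also kept it (-0.74, beside 4.58% of all genes called). Over all fits without 1 library the log2 fold change was -0.84 to -0.61, and those without Q808-1 or Q808-2 left a single Q808 library. Relative to the 5 pan-neuronal markers in each library, which were lower in Q808 than in PTZ (log2 fold change below 0 for 5 of 5, median -0.43), the log2 fold change of Gabra4 was -0.27 and was not called. Of those markers Eno2 stood far higher in PTZ-2 than elsewhere, and without it the value was also -0.27.

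The other 6 genes were not called. Gabra2 was at 23.0 FPKM in Q808-1 and 71.5 in Q808-2, and Gabrb1 at 8.29 and 19.8. For both, the 2 Q808 libraries enclosed all 3 PTZ libraries. Gabra5 was at 10.7 and 66.5 FPKM and Gabrb2 at 15.5 and 24.2, each lowest in Q808-1. Gabrd went the other way, with 23.9 FPKM in Q808-1 and 13.7 in Q808-2. Gabra3 was at 13.7 and 16.05 FPKM. Their log2 fold changes lay between -0.75 (Gabra5, interval -2.75 to 1.25) and 0.18 (Gabrd, -1.11 to 1.47). The Q808 group held 1 library of each set, and a change of 1.5-fold in either direction lies within the intervals of Gabra2, Gabra5, Gabrb1 and Gabrd. Without Q808-2, which left the striatum-rich Q808-1 alone, 4 of the 7 genes were called, Gabra2 (-1.26), Gabra5 (-2.06) and Gabrb2 (-0.61) in addition to Gabra4. In that fit 8.34% of all genes were called, and the spread came from the PTZ libraries alone, with Q808-1 assumed to vary like them. The median over the 7 genes was -0.29, beside 0.10 over all genes tested.

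In the third comparison, Q808 against Con., none of the 7 genes was called, beside 3.46% of all genes called. This comparison shares its libraries with the other two and adds no independent evidence. The share of all genes without overlap was not counted here either. Gabra4 was again the only member whose groups did not overlap, with 18.95 and 22.35 FPKM in Q808 below the Con. values of 26.6, 26.4 and 44.6. Its log2 fold change was -0.61 (-1.30 to 0.07, limma adjusted p = 0.901), and the exact permutation test of 2 against 3 libraries again gave its smallest p, 0.2. Once the library set was a term, Gabra4 was called (-0.63, limma adjusted p = 0.62, beside 4.86% of all genes called). With that term the intervals of Gabra2 (-0.55, -1.05 to -0.05) and Gabrd (-0.50, -0.99 to -0.01) also lay below 0, both under 1.5-fold and with a limma adjusted p of 0.62. Without Q808-2, Gabra2 (-1.52) and Gabrb2 (-0.78) were called in this comparison, beside 11.5% of all genes, with the spread taken from the Con. libraries alone.

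**Figure D2:**
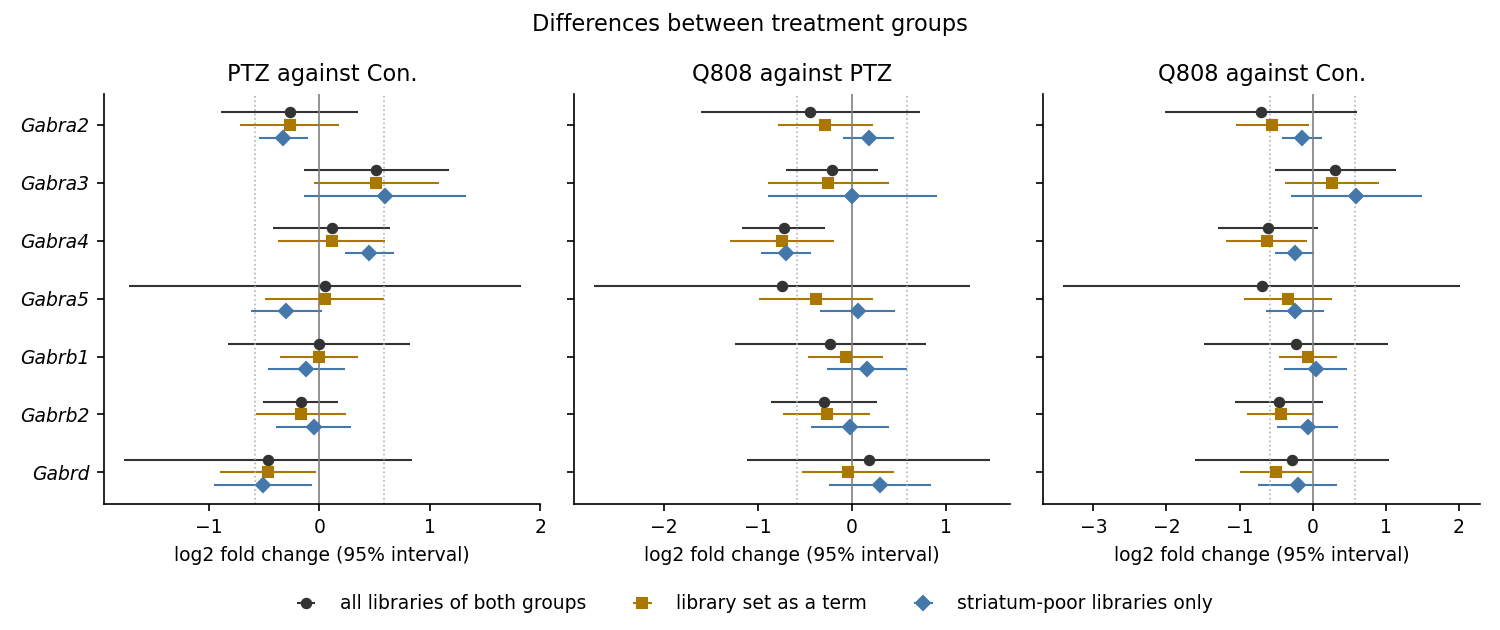
Log2 fold change of each subunit gene with its 95% interval (horizontal axis) for the 3 treatment comparisons; circles use all libraries of both groups, squares add the library set as a term, diamonds use the striatum-poor libraries only, and dotted lines mark 1.5-fold. The Q808 against PTZ value of Gabra4 is close to -0.7 in each of the 3 fits, which share libraries and are not independent. The intervals of Gabra5 narrow from -2.75 to 1.25 with all libraries to -0.33 to 0.46 within the striatum-poor set.

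Within the 5 striatum-poor libraries, which were fitted together, PTZ was represented by 2 libraries, Con. by 2 and Q808 by 1, and the lone Q808-2 library was assumed to vary like the others. In PTZ against Con. none of the 7 genes was called, beside 9.82% of all genes, but the intervals of 3 did not include 0. Gabra4 was at 26.6 and 26.4 FPKM in Con. and 36.1 and 36.6 in PTZ. The 2 libraries of each group were nearly equal and the groups were apart, with a log2 fold change of 0.45 (SE 0.09, interval 0.24 to 0.67, limma adjusted p = 0.101), which is 1.37-fold. Gabra2 was lower in PTZ by a log2 fold change of -0.33 (-0.55 to -0.11, limma adjusted p = 0.167). Gabrd was also lower, by -0.51 (-0.95 to -0.06, limma adjusted p = 0.218). The median log2 fold change of all genes in this set was -0.11, and scaling by median ratios moved it to 0.0047. Under that scaling the intervals of Gabra2 (-0.20, limma adjusted p = 0.364) and Gabrd (-0.39, limma adjusted p = 0.35) included 0, whereas Gabra4 was at 0.58 (limma adjusted p = 0.0667), still just under 1.5-fold, with an interval that did not include 0. For Gabra5 (-0.30), Gabrb1 (-0.12) and Gabrb2 (-0.05) the intervals included 0, and so did that of Gabra3 (0.59, -0.14 to 1.33), in which Con.-1 stood apart. Without Con.-1 Gabrd was called (-0.74), beside 6.62% of all genes, and without Con.-2 Gabra3 was called (1.04), beside 9.84%, each with a single Con. library left in this set.

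In Q808 against PTZ within this set Gabra4 fell again, from 36.1 and 36.6 FPKM to 22.35 in Q808-2, a log2 fold change of -0.70 (SE 0.11, interval -0.97 to -0.43, limma adjusted p = 0.0754). It was the 1 gene of the 7 called, beside 10.4% of all genes, so a count of 1 in 7 is near the background. The median log2 fold change of all genes was 0.16 in this comparison and 0.0058 after scaling by median ratios, under which Gabra4 was still called. Relative to the 4 pan-neuronal markers other than Eno2, Gabra4 was at -0.57, just under 1.5-fold. The log2 fold changes of the other 6 genes lay between -0.02 for Gabrb2 and 0.30 for Gabrd, and all of their intervals included 0. Markers of the choroid plexus, the tissue that secretes cerebrospinal fluid, differed strongly between these same libraries. The mean log2 level of 6 such markers was 3.37 and 3.52 in Con.-1 and Con.-2, 1.49 and 1.02 in PTZ-1 and PTZ-2 and 4.79 in Q808-2, and all 5 of those tested were called lower in PTZ against Con. and higher in Q808 against PTZ. Their part in the Gabra4 result was not tested. In Q808 against Con. none of the 7 genes was called, beside 4.53% of all genes, and the log2 fold change of Gabra4 was -0.24 (-0.51 to 0.02).

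In the striatum-rich set each group had a single library, so no test was possible within it and the differences are given as values. From Con.-3 to PTZ-3 Gabra4 differed by -0.57 on the log2 scale, the opposite sign to the 0.45 of the striatum-poor set. From PTZ-3 to Q808-1 it differed by -0.66, close to the -0.70 of the striatum-poor set. However, all 7 members were lower in Q808-1 than in PTZ-3, with log2 differences from -0.38 (Gabrb1) to -1.05 (Gabra5). The striatum-rich difference was therefore not particular to Gabra4. The lower Gabra4 in Q808 than in PTZ was thus seen in both sets, whereas the higher Gabra4 in PTZ than in Con. was seen in the striatum-poor set alone. For the difference between sets, the spread came only from the Con. and PTZ pairs of striatum-poor libraries, and each lone library was assumed to vary like them. The call rule was passed by 2 of the 7 genes in PTZ against Con. (Gabra4 and Gabra5, beside 19.2% of all genes), 2 in Q808 against PTZ (Gabra2 and Gabra5, beside 16.1%) and 3 in Q808 against Con. (Gabra2, Gabra4 and Gabrb2, beside 10.5%). No limma adjusted p of these genes was under 0.05, so a difference in effect between the sets was not established. Gabra5 was at a log2 difference of 0.74 from Con.-3 to PTZ-3 and of -1.05 from PTZ-3 to Q808-1. Q808-1 had the lowest level of the 8 libraries for 5 of the 7 genes, namely Gabra2, Gabra4, Gabra5, Gabrb1 and Gabrb2.

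The largest differences among the subunit genes lay between the library sets. These sets were defined from the striatal markers in the data and are not groups of the study, and treatment group was kept as a term in the fit. Of the 7 genes 4 were called, 3 lower and 1 higher in the striatum-rich libraries, beside 19.1% of all genes tested (7.41% lower and 11.7% higher), and all 4 had adjusted p-values under 0.05 in limma. Over all genes 1819 were called higher and 1155 lower, against 1339 and 1385 after quantile normalization, under which the same 4 members were called in the same directions. Gabra5 was at 10.7 to 22.4 FPKM in the striatum-rich and 58.4 to 85.4 in the striatum-poor libraries. The sets were far apart, with a log2 fold change of -2.19 (SE 0.21, limma adjusted p = 0.00072). Gabrb1 was at 8.29 to 10.8 FPKM against 17.1 to 21.65, a log2 fold change of -0.98 (SE 0.14, limma adjusted p = 0.00339). Gabra2 was at 23.0 to 46.5 FPKM against 61.5 to 82.5, a log2 fold change of -0.94 (SE 0.18, limma adjusted p = 0.0107). Gabrd was the 1 member higher in the striatum-rich set, at 23.9 to 42.8 FPKM against 10.6 to 18.65, a log2 fold change of 1.30 (SE 0.17, limma adjusted p = 0.00253).

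For these 4 genes the 2 sets did not overlap, and the two-sided exact permutation test of 3 against 5 libraries gave p = 0.0357, the smallest it can give. The share of all genes without overlap was not counted, but the split was broad. Of all 15593 genes tested, 2469 had an adjusted limma p under 0.05 between the sets. The other 3 members overlapped between sets. The log2 fold change was 0.24 for Gabra3 (-0.27 to 0.75), 0.11 for Gabra4 (-0.34 to 0.55) and -0.15 for Gabrb2 (-0.52 to 0.22), with exact permutation p-values of 0.5, 1 and 0.464. The CA1 and CA3 pyramidal cell markers were lower in the same libraries as Gabra5, Gabrb1 and Gabra2, and their part in these differences was not tested. Oligodendrocyte markers were higher and pan-neuronal markers lower there, so the calls were also made relative to the pan-neuronal markers without Eno2. On that scale Gabra5 (-1.48) and Gabrd (2.01) were still called in the same direction, Gabra2 (-0.23) and Gabrb1 (-0.28) were not, and Gabra3 (0.95) and Gabra4 (0.81) were called higher. Because the pan-neuronal markers were lower in the striatum-rich libraries, that scale raises the log2 fold change of every gene by the same amount. The share of all genes called on it is not given here, so these calls have no background beside them. Gabrb2 changed sign on that scale, to 0.56, under 1.5-fold. The Gabra5 and Gabrd calls were kept under all 18 alternatives tried.

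**Figure D3:**
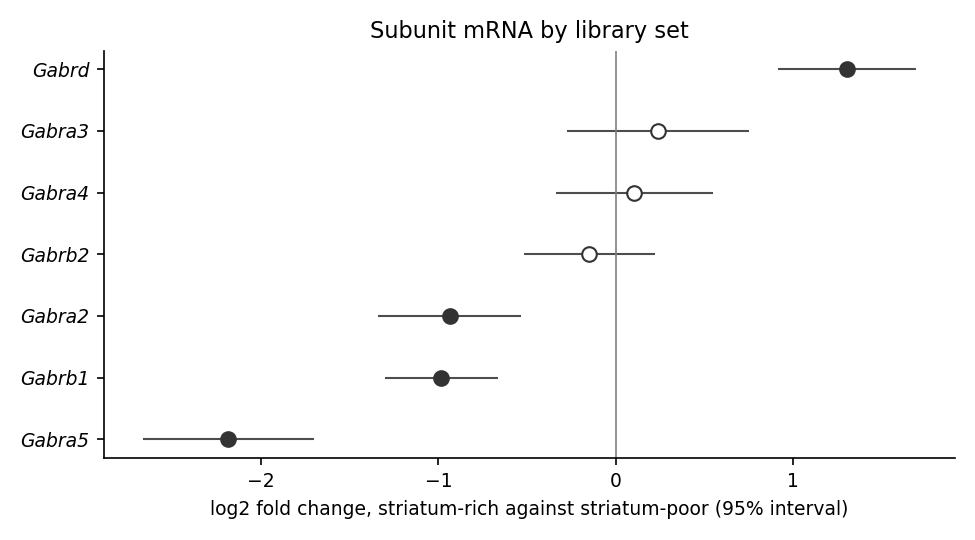
Log2 fold change of each subunit gene between striatum-rich and striatum-poor libraries, with treatment group as a term (horizontal axis, bars are 95% intervals); filled points were called and open points were not. Gabra5 stands lowest at -2.19 and Gabrd highest at 1.30.

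The make-up of the alpha subunit mRNA differed accordingly. The summed FPKM of the 4 alpha genes was 176.4 to 195.4 in the striatum-poor libraries and 119.8, 113.9 and 66.35 in Con.-3, PTZ-3 and Q808-1. Gabra5 made up 33% to 43.7% of this sum in the striatum-poor libraries and 11.2%, 19.7% and 16.2% in the 3 others. The share of Gabra4 was 13.6% and 13.5% in Con.-1 and Con.-2, 19.9% and 20.7% in PTZ-1 and PTZ-2 and 12.7% in Q808-2. The striatum-rich libraries had higher Gabra4 shares than each striatum-poor library, 28.6% for Q808-1, 26.3% for PTZ-3 and 37.2% for Con.-3. The share of Gabra2 stayed between 33.9% and 42.3% in all 8 libraries.

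Gabra4 and Gabrd, whose products assemble together, did not keep a fixed ratio. The Gabra4 to Gabrd ratio of FPKM was 1.98 and 1.42 in Con.-1 and Con.-2, 3.11 and 3.45 in PTZ-1 and PTZ-2 and 1.63 in Q808-2. The striatum-rich libraries had ratios of 0.79 (Q808-1), 0.91 (PTZ-3) and 1.04 (Con.-3). The 2 striatum-poor PTZ libraries thus had the highest ratios of all 8, and the PTZ library of the striatum-rich set did not stand out. The Gabrb1 to Gabrb2 ratio was 0.71 to 0.82 in the striatum-poor and 0.31 to 0.54 in the striatum-rich libraries. These ratios were chosen after the values were seen and are given with no test.

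**Figure D4:**
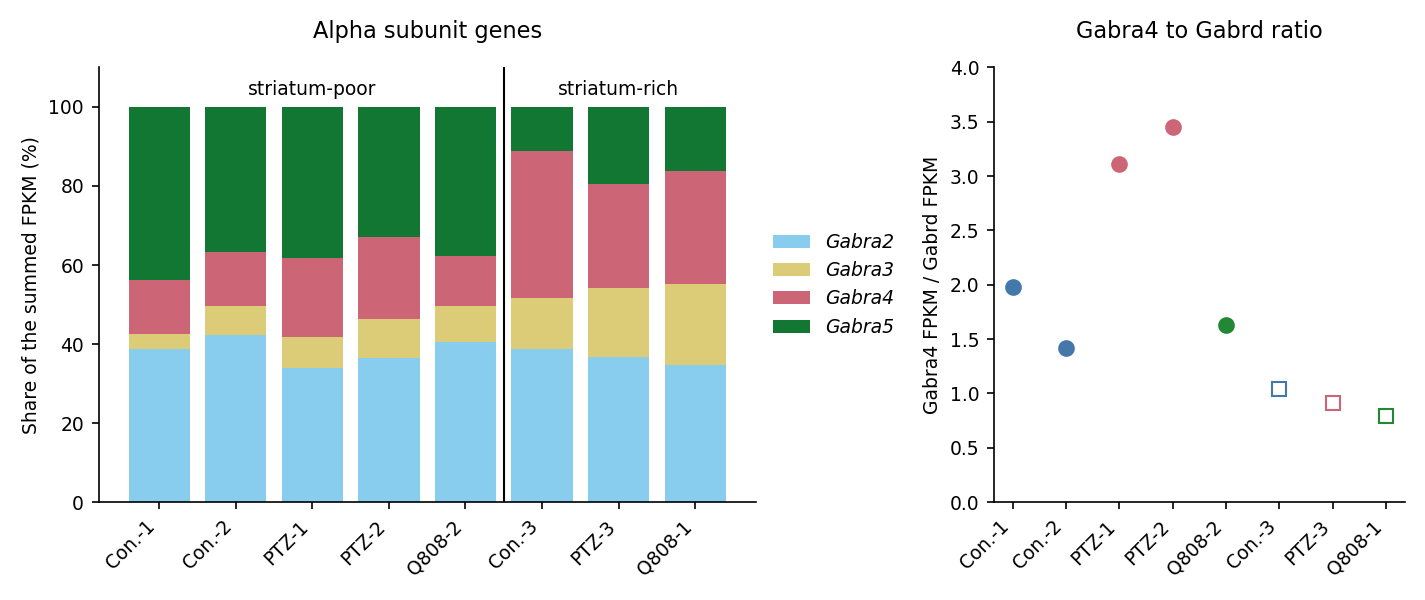
Left, share of the summed FPKM of the 4 alpha subunit genes taken by each (%, vertical axis) in each library, striatum-poor to the left of the line; right, Gabra4 FPKM divided by Gabrd FPKM in the same libraries, coloured by treatment group (blue Con., red PTZ, green Q808; open squares striatum-rich). The Gabra5 share drops to 11.2% to 19.7% in the striatum-rich libraries, and the ratio peaks at 3.11 and 3.45 in PTZ-1 and PTZ-2.

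Genes with the pattern most like each subunit across the 8 libraries were found by the root mean square difference of log2 levels, each gene centred on its own mean, among 12382 genes with a mean of at least 1 FPKM. The nearest to Gabra4 were C8h11orf87 (0.103) and Spata2L (0.127), where the spread of Gabra4 itself was 0.378. The nearest to Gabra5 were Tnfaip8l3 (0.159) and Kcnj6 (0.187), the second of which encodes a potassium channel subunit opened by G proteins, and those to Gabrd were Prkar2b (0.156), a regulatory subunit of protein kinase A, and Rcn1 (0.169). Sez6l2 (0.08) and Asns (0.106) were nearest to Gabra2, and Rab3b (0.133) and Adra1a (0.161) to Gabra3. Zmat4 (0.062) and Nrcam (0.076) were nearest to Gabrb1, and Pcdha4 and Ndrg4 (both 0.058) to Gabrb2. These are descriptions over libraries that share tissue, depth and library set, and were not tested.

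The rest of the receptor pathway was followed through 3 lists. Of the other 12 GABA-A subunit genes 10 passed the filter on low levels, and all 22 genes of receptor clustering and trafficking and all 5 of the GABA-B receptor, the G protein-coupled receptor for GABA, did so. None of these 37 genes was called in any of the 3 treatment comparisons over all libraries. Insyn1, a protein of inhibitory synapses, had the smallest p among the clustering genes in PTZ against Con. (log2 fold change -0.34, interval -0.63 to -0.06, limma adjusted p = 0.999). In Q808 against PTZ the smallest p of that list was that of Insyn2a (-0.59, -1.60 to 0.42) and of the GABA-B list that of Gabbr2 (-0.41, -1.43 to 0.61). In Q808 against Con. it was that of Gphn, which encodes the receptor scaffold gephyrin (-0.40, -0.87 to 0.08), and Kctd16 had the smallest of the GABA-B list there (-0.67, -1.77 to 0.43) and in PTZ against Con. (-0.36, -1.14 to 0.43).

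Within the striatum-poor set 2 other subunit genes were called lower in PTZ against Con., Gabra6 (-1.46) and Gabrr3 (-1.06), both under 1 FPKM in every library, and the GABA-B list gene Kctd8 was called higher (0.78). Gabrq, also under 1 FPKM in every library, was the 1 listed gene called in Q808 against PTZ there (1.18, with Q808-2 alone for Q808). None of these 4, named after their values were seen, had an adjusted limma p under 0.05. The calls made up 3 of 37 listed genes in PTZ against Con., beside 9.82% of all genes, and 1 of 37 in Q808 against PTZ, beside 10.4%, so neither share was above the background.

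Between the library sets 4 of the 10 other subunit genes were called, all lower in the striatum-rich set, beside 7.41% of all genes called lower and 19.1% called in either direction. Of the clustering genes 3 of 22 were called, which is under that share, and of the GABA-B list 3 of 5. Among them Gabrr3 was listed at 0 in all 3 striatum-rich libraries and at 0.23 to 0.618 FPKM in the others, and Gabrr2, at 0.106 to 0.314 FPKM against 0.612 to 0.917, had a log2 fold change of -1.57 (limma adjusted p = 0.0129). Of the clustering genes Kif5a, a motor that carries receptors, was higher (0.97), and Iqsec3 (-1.18), an inhibitory synapse protein, and Nsf (-0.66), which takes part in membrane fusion, were lower. The adjusted limma p-values were 0.0421, 0.00267 and 0.0603. Of the GABA-B list Gabbr2, a receptor subunit (-1.10), and Kctd12 (-1.06) were lower, whereas Kctd8, like Kctd12 an auxiliary subunit, was higher (2.13), with adjusted limma p-values of 0.00146, 0.00091 and 0.0027. Gabbr2 was at 27.7 to 38.3 FPKM in the striatum-rich and 63.3 to 74.6 in the striatum-poor libraries, and Kctd8 at 5.31 to 12.1 against 1.25 to 2.91.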

How the data were processed

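Hippocampal mRNA of 8 Wistar rats was sequenced, with 1 library per rat. According to the submitters' processing notes and methods, the reads were trimmed with Trimmomatic and mapped, and the authors deposited FPKM per gene, computed with Cufflinks. Both HISAT2 and Bowtie2 are named in those notes, and the genome build, the versions and the use of strand in counting are not given in the sources used here. FPKM hold no counts, so absolute depth and counting error were unknown and precision rests on the spread between rats.

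Groups and replicate numbers came from the library titles, and genes were matched by NCBI GeneID. The 15593 genes with a mean of at least 0.1 FPKM were fitted on log2(FPKM + 0.1) with limma 3.58.1 (R 4.3.3, empirical Bayes with trend), which understates changes of low genes. Each comparison used its own 2 groups, p-values were adjusted over all genes by Benjamini-Hochberg, and a call required an unadjusted p under 0.05 and more than 1.5-fold. The library sets are the 2 sides of the largest gap in the mean of the striatal markers. Intervals are 95% intervals of limma. Exact tests used scipy 1.17.1. The limma script was tested on simulated data.

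Named genes were the 7 members in every comparison, the called and the smallest-p genes of the pathway lists, and the 2 genes nearest to each member. Some subunit genes of the pathway list are not reported here by name. The members and lists were chosen with earlier results of these data known. Deviations from group means of same-numbered Con. and PTZ libraries correlated at 0.212, 0.299 and 0.422, each over the limit of 0.1 for taking numbers as pairs. The differently numbered Con.-2 and PTZ-1 correlated at 0.322, and the pairs also share a library set, so number and set cannot be told apart. The block for the pair changed no call of a member in that comparison. Alternatives were other pseudocounts, filters, scalings and designs and leaving out each library.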

Additional observations from a re-analysis of the deposited data

Results flagged for a closer look

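For 7 values the difference in treatment effect between striatum-rich and striatum-poor libraries passed the call rule in limma, an unadjusted p under 0.05 and over 1.5-fold. This fit was chosen after seeing the data. Each group had 1 striatum-rich library and Q808 had 1 striatum-poor one, so the spread came only from the Con. and PTZ pairs of striatum-poor libraries. None of the 7 had an adjusted p under 0.05, and the shares of all genes that passed the same rule were high, so a difference between the sets was not established. The values below are differences of log2 fold changes, striatum-rich minus striatum-poor.

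In PTZ against Con. the difference was -1.03 for Gabra4 (limma adjusted p = 0.0744), where the log2 fold change was -0.57 in the striatum-rich and 0.45 in the striatum-poor libraries. It was 1.04 for Gabra5 (limma adjusted p = 0.114), where the log2 fold changes were 0.74 and -0.30. This made 2 of the 7 genes, beside 19.2% of all genes tested.

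In Q808 against PTZ the difference was -1.05 for Gabra2 (limma adjusted p = 0.0916) and -1.12 for Gabra5 (adjusted p = 0.138), 2 of the 7 genes beside 16.1% of all genes. For Gabra4 the difference was 0.04 (95% interval -0.37 to 0.45).

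In Q808 against Con., which shares its libraries with the other comparisons, the difference was -0.87 for Gabra2, -0.99 for Gabra4 and -0.85 for Gabrb2, with limma adjusted p-values of 0.3, 0.3 and 0.333, beside 10.5% of all genes. Q808-1 was the lowest of the 8 libraries for all 3 genes. The striatal, oligodendrocyte, pan-neuronal, CA1 and CA3 markers moved with the library set, and their part in these differences was not tested.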

How the results depend on the processing

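The precision of all values was limited by 2 or 3 rats a group and by the mixture of library sets within each group. Leaving out 1 Con. or PTZ library of the pooled fits gave 0 called members in PTZ against Con., beside 1.6% to 7.28% of all genes. It gave 1 in Q808 against PTZ, beside 0.847% to 10.1%, and 0 in Q808 against Con., beside 1.79% to 4.51%. Leaving out a Q808 library, or a library of the striatum-poor set, left a group with a single library, so the calls given above for those fits rest on an assumed spread. Without Con.-2, Gabra3 was at a log2 fold change of 1.05 in Q808 against Con. within the striatum-poor set. Only 1 of the 7 genes, Gabra4, was called in Q808 against PTZ in both the pooled and the striatum-poor libraries. The striatum-poor libraries are part of the pooled ones, so the second call is not independent of the first. Over the 18 alternatives to the pooled fit the log2 fold change of Gabra4 was -0.84 to -0.27, and it was called under 16 of them.

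The count of called members in Q808 against PTZ was 0 relative to the pan-neuronal markers, with or without Eno2, and 0 within the striatum-poor set without Eno2. These scalings were chosen after seeing the data, and the shares of all genes called under them are not given here. Relative to the markers without Eno2 the count was 1 (Gabra3, 0.61) in PTZ against Con. and 1 (Gabra3, 0.74) in Q808 against Con., both within the striatum-poor set. In Q808 against Con. the count was 1 (Gabra4) with all 3 groups in 1 fit, for which the share of all genes called is not given here. It was also 1 with the library set as a term, beside 4.86% of all genes. With a block for the replicate number Q808 against PTZ gave 2 called members, the second being Gabrd (0.70), Q808 against Con. gave 0, with Gabrd at 0.19 instead of -0.28, and PTZ against Con. gave 0. Over all genes the block moved the number called from 395 to 616 in PTZ against Con., from 300 to 1866 in Q808 against PTZ and from 540 to 1068 in Q808 against Con. The Q808 numbers were not treated as pairs. With 2 Q808 libraries the deviations from their mean are equal and opposite. The correlations of Q808-1 and Q808-2 with any other library therefore differ only in sign and are not separate evidence on pairing. The deviations of Con.-1 and Q808-1 correlated at -0.379 and those of PTZ-1 and Q808-1 at -0.295. Those of Con.-2 and Q808-2 correlated at 0.527 and those of PTZ-2 and Q808-2 at 0.322. The pairs with Q808-2 share a library set and those with Q808-1 do not, so number and set cannot be told apart here either.

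All other changes of sign were of uncalled values. In PTZ against Con. the log2 fold change of Gabrb1 was 0.022 with quantile normalization and 0.047 with median ratio scaling. Within the striatum-poor set median ratio scaling gave 0.0024 for Gabrb1 and 0.069 for Gabrb2 in that comparison and -0.15 for Gabra3 and -0.094 for Gabra5 in Q808 against PTZ, where quantile normalization gave -0.10 for Gabra3. The striatum-poor libraries alone gave -0.30 for Gabra5 in PTZ against Con., 0.18 for Gabra2, 0.0056 for Gabra3, 0.062 for Gabra5 and 0.16 for Gabrb1 in Q808 against PTZ, and 0.041 for Gabrb1 in Q808 against Con. The library set as a term gave -0.036 for Gabrd in Q808 against PTZ. Relative to all 5 pan-neuronal markers the values were -0.074 for Gabra4 and -0.14 for Gabra5 in PTZ against Con., 0.012 for Gabra2, 0.24 for Gabra3, 0.22 for Gabrb1 and 0.16 for Gabrb2 in Q808 against PTZ, 0.037 for Gabrb1 in Q808 against Con. and 0.46 for Gabrb2 between library sets. Without Eno2 they were 0.020, 0.25, 0.23 and 0.17 for the same 4 genes in Q808 against PTZ, 0.22 for Gabrb1 and 0.16 for Gabrd in Q808 against Con. and 0.56 for Gabrb2 between sets. Within the striatum-poor set they were 0.11 for Gabrb2 in Q808 against PTZ and 0.0017 for Gabra2 and 0.076 for Gabrb2 in Q808 against Con. The causes were not tested.

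Leaving out 1 library each changed the sign of some values. In PTZ against Con. the ranges were -0.015 to 0.36 for Gabra4, -0.80 to 0.55 for Gabra5, -0.36 to 0.26 for Gabrb1 and -0.99 to 0.012 for Gabrd. In Q808 against PTZ they were -1.26 to 0.38 for Gabra2, -2.06 to 0.56 for Gabra5, -0.85 to 0.40 for Gabrb1, -0.61 to 0.029 for Gabrb2 and -0.22 to 0.70 for Gabrd. In Q808 against Con. they were -1.52 to 0.11 for Gabra2, -0.0021 to 0.49 for Gabra3, -2.01 to 0.61 for Gabra5, -0.85 to 0.39 for Gabrb1 and -0.68 to 0.19 for Gabrd. Within the striatum-poor set they were -0.29 to 0.050 for Gabrb1 and -0.21 to 0.10 for Gabrb2 in PTZ against Con., -0.12 to 0.14 for Gabra3, -0.061 to 0.19 for Gabra5 and -0.084 to 0.048 for Gabrb2 in Q808 against PTZ, and -0.13 to 0.21 for Gabrb1, -0.23 to 0.086 for Gabrb2 and -0.44 to 0.029 for Gabrd in Q808 against Con. Between library sets they were -0.26 to 0.33 for Gabra4 and -0.35 to 0.035 for Gabrb2, with Gabra4 at its lowest without Con.-3.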
